A study of Mus musculus with 8 samples.

Results

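The 9 genes described here encode parts of the meiotic chromosome axis, the synaptonemal complex and the complex that ties telomeres to the nuclear envelope. They were picked by name for the known function of their products, after earlier results of these data had been seen. They are Rec8, Rad21l, Sycp2, Hormad1, Hormad2, Sycp1, Syce2, Majin and Terb1, which are 9 of the 5736 genes in the expression table. The samples were 8 RNA-seq libraries from mouse spermatogonia, the mitotic germ cells that precede meiosis, at 3 successive stages. Aal denotes undifferentiated spermatogonia (2 libraries), A1 the first type of differentiating spermatogonia (3 libraries) and A3 a later type of differentiating spermatogonia (3 libraries).

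All animals carried the CD1:Uchl1-eGFP genotype, in which the promoter of Uchl1 drives EGFP, on a line of C57BL/6 origin outcrossed to CD-1. Spermatogenesis was synchronized in these pups with WIN 18,446, an inhibitor of retinoic acid (RA) synthesis, given by mouth at 100 µg/g daily from postnatal day (P) 1 to P10. Differentiation was then started at P11 by RA injected once under the skin (10 µl, 10 µg/µl). The labels carry the same treatment text for every library and no age for any single library, and the study's text places Aal before the injection, A1 about a day after it and A3 some days after it. EGFP-positive cells were collected by flow cytometry from testes of at least 5 pups per preparation, so each library is a pool of animals, and the replicates are separate cell preparations. None of the libraries was labelled as meiotic.

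In meiotic prophase, sister chromatids are held by cohesin rings closed by meiosis-specific kleisin subunits, and the chromatids are folded into loops along a protein axis. The paired axes are then zipped together by the synaptonemal complex, while telomeres attach to the inner nuclear envelope and are moved by forces from the cytoplasm. Transcripts of several of these genes are already present in spermatogonia, before any of these structures has formed.

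Promoter sequence was read for the members because RA is known to act through nuclear receptors that bind DNA, and because several other factors that act on meiotic genes have known recognition letters. Windows from 250 bases before to 50 bases after a RefSeq gene start (GRCm38.p6) were matched for 8 of the 9 genes, with 10 windows in all, since Hormad1 and Syce2 have a pair of annotated starts each. The letters searched, on both strands, were CNCCTCAG (linked with STRA8), CACGTG (an E-box), GCGGGAA (an E2F-type motif), AGGTCA (the core letters of nuclear receptor sites) and DR5, the RA element in which AGGTCA stands in direct repeat with 5 letters between the copies. The 250 bases before the start are printed below for the 3 members that had CACGTG and for both kleisin genes, which had none of the letters. They run 5′ to 3′ on the gene's strand. Capitals mark the E-box, E2F-type and STRA8-linked letters on either strand, and matches to AGGTCA are left in lower case.
Hormad1: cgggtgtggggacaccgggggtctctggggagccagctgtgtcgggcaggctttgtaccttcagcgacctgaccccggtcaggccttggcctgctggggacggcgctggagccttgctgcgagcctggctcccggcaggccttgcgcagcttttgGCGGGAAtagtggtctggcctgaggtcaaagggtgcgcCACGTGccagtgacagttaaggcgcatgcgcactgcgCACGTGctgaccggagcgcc
Syce2: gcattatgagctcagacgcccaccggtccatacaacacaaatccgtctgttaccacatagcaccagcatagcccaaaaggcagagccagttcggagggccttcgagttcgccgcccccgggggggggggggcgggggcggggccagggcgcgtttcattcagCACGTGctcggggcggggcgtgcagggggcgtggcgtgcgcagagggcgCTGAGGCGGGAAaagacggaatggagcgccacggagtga
Sycp1: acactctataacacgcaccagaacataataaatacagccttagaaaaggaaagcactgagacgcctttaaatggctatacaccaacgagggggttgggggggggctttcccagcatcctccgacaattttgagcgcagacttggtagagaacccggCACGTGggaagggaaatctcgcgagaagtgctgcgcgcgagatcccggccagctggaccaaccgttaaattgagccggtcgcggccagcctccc
Rec8: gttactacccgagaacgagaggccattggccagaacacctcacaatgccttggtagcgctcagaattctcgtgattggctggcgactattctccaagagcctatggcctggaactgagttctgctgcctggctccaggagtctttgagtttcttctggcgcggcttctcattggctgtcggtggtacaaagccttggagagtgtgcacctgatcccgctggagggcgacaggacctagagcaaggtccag
Rad21l: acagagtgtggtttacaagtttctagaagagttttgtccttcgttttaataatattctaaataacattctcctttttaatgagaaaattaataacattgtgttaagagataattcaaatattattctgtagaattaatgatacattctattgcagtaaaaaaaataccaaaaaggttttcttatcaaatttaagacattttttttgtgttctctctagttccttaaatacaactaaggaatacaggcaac

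By exact match in mm9, the build to which the reads were mapped, these stretches lie at chr3:95363349-95363598 (Hormad1, plus strand), chr8:87395907-87396156 (Syce2, plus strand), chr3:102740024-102740273 (Sycp1, minus strand), chr14:56236753-56237002 (Rec8, plus strand) and chr2:151494270-151494519 (Rad21l, minus strand). The starts are those of RefSeq. In the mm9 gene annotation Rec8 begins at 56236874 and Syce2 at 87396010, so the last part of these 2 stretches lies inside the annotated gene. Positions of matches are those of their leftmost base, counted back from −1 for the base just before the RefSeq start. Hormad1 held CACGTG at −57 and −20, GCGGGAA at −95 and AGGTCA at −73. In the second window of Syce2, CACGTG lay at −88, and CNCCTCAG on the opposite strand at −39 overlapped GCGGGAA at −34. Sycp1 held CACGTG at −94 and CNCCTCAG on the opposite strand 33 bases past the start. Hormad2 had CNCCTCAG on the opposite strand at −109, Terb1 had AGGTCA at −230, and Rec8, Rad21l, Sycp2 and the first window of Syce2 held none of the letters. Over all 32851 windows of the RefSeq table, CNCCTCAG was found in 7.94%, CACGTG in 7.15%, GCGGGAA in 4.60%, AGGTCA, whose letters also make up each end of DR5, in 16.3%, and DR5 in 3 windows (0.00913%), none of them of a member. Over the 5555 windows of genes in the expression table the shares were 8.98% for CNCCTCAG, 8.82% for CACGTG, 7.78% for GCGGGAA and 12.4% for AGGTCA, and none held DR5. The window of Rad21l was 29.0% G and C, against a median of 52.7% over all windows, while those of the other members ran from 56.7% to 69.3%. Only exact letters were searched, and with DR5 this rare, its absence from the windows of the members says nothing on RA action. These matches describe letters only and no binding was measured here.

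The values are FPKM, reads of a gene scaled for its counted length and for the total reads of the library, which allows levels to be set side by side between genes. Each library had 18276164 to 27316451 reads, as rebuilt from the steps of the FPKM values, and Uchl1 itself was among the most abundant transcripts at 4048 to 7270 FPKM. Of marker lists written for this tissue, the summed FPKM of the undifferentiated list (12 of 21 genes in the table) was 419 to 464 in Aal, 115 to 174 in A1 and 108 to 117 in A3, which follows the labels. That of the spermatocyte and spermatid list (7 of 22 genes) was 46.1 to 55.3 in all 8 libraries, most of it from Tbpl1 (20.5 to 25.8 FPKM), Clgn and Tesk2. Of that list, Ldhc was called lower (log2 change −1.19) and Ccna1 higher (1.33) in A1 against Aal. The 14 Sertoli cell genes in the table (of 28 listed) summed to 46.4 and 64.5 in Aal and to 72.7 and 74.8 in A1 replicates 1 and 2, but to 499 in A1 replicate 3 and 259 to 479 in A3. A1 replicate 3 alone stood apart in 3 other somatic lists, with sums of 8.80 FPKM for Leydig cell genes (3 in the table), 11.5 for macrophage genes (4) and 6.53 for myoid genes (3), against at most 2.08, 5.46 and 3.36 in the other 7 libraries. Lyz2 (8.28 FPKM) made up most of that macrophage sum. Csf1r and C1qb were also highest there, and Aif1 was lowest (1.06 FPKM). The endothelial list (5 genes) went another way, with sums of 7.9 and 9.1 FPKM in Aal, 5.2 to 6.6 in A1 and 3.1 to 3.5 in A3. Clu, the most abundant of the Sertoli genes, stood at 17.1 to 32.9 FPKM in the first 4 libraries and at 114 to 220 in the last 4. The part of these transcripts in the values of the 9 genes was not tested beyond leaving out A1 replicate 3. Without that library, every Sertoli sum of A3 lies above those of Aal and A1. In bulk libraries such as these, fewer cells of a type and less RNA per cell cannot be told apart.

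The table holds no value of 0, for these 9 genes or any other. In Aal the mean level ran from Sycp1 (63.1 ± 5.62 FPKM, SD, n = 2) through Sycp2 (46.2 ± 1.91) and Syce2 (45.6 ± 7.65) to Hormad1 (17.3 ± 2.44), Rad21l (15.5 ± 0.530), Hormad2 (12.9 ± 0.270), Rec8 (10.3 ± 1.58), Majin (3.28 ± 0.624) and Terb1 (1.32 ± 0.124). Sycp2 and Syce2 overlapped in this order, as did Hormad1 and Rad21l, and the other neighbours did not. In A1 the order was Syce2, Sycp1, Sycp2, Hormad1, Rec8, Hormad2, Rad21l, Majin and Terb1, with overlap between Hormad1 and Rec8 only. In A3 it was Syce2, Sycp1, Sycp2, Hormad1, Rec8, Hormad2, Majin, Rad21l and Terb1, with overlap between Majin and Rad21l only. Rec8 therefore lay below Rad21l in both Aal libraries and above it in all 6 differentiating libraries. Averaged over the 8 libraries, Syce2 and Sycp1 ranked at the 95.5th and 93.5th percentile of the table, and Majin and Terb1 at the 48.6th and 34.3rd.

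**Figure D1:**
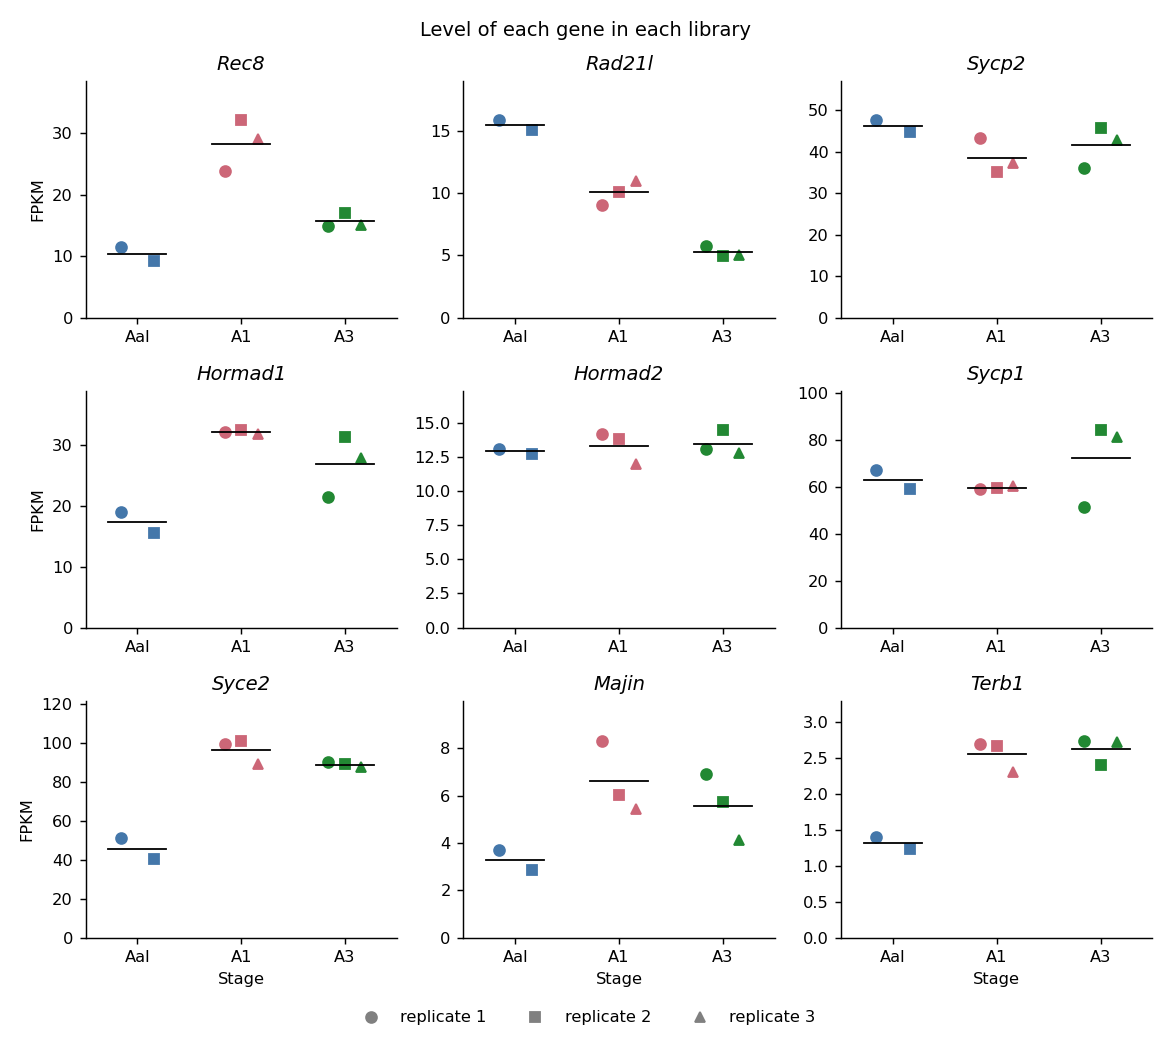
FPKM of each of the 9 genes (vertical axes, each starting at 0) in every library at stages Aal (2 libraries), A1 (3) and A3 (3). Points are libraries, shapes are replicate numbers and bars are group means. Syce2 and Terb1 sit higher in all 6 differentiating libraries than in Aal, Rad21l steps down at each stage, and Rec8 is highest in A1.

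Stages were compared in pairs with limma on log2(FPKM + 1). A gene was called at an adjusted p of at most 0.01, Benjamini-Hochberg over all genes tested, with an absolute log2 fold change above 1. A fold change on this scale understates the change of low genes, so the ratio of mean FPKM is given as well. In A1 against Aal, 2 of the 9 genes were called higher (Rec8 and Syce2) and none was called lower. Over all genes tested, 9.15% were called and 4.19% were called higher. At the same adjusted p with no limit on fold, 5 members passed (Rec8, Rad21l, Hormad1, Syce2 and Terb1), against 27.0% of all genes. The libraries of the groups did not overlap for 7 members, 5 higher and 2 lower in A1, against 64.0% of all genes. The median log2 fold change of the 9 was 0.62, and that of all genes was 0.03. Since the 9 were picked with earlier results of these data known, such comparisons with all genes only describe them.

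In A3 against A1, no member was called, where 1.50% of all genes were. Rec8 and Rad21l, both lower in A3, passed the adjusted p with no limit on fold, which 7.60% of all genes did. Groups did not overlap for 3 members (Rec8, Rad21l and Hormad1, all lower in A3), against 38.1% of all genes, and the median of the 9 was −0.12 against 0.01. In A3 against Aal, 1 member was called lower (Rad21l) and none was called higher. Over all genes tested, 17.6% were called and 9.69% were called lower. With no limit on fold 4 members passed (Rec8, Rad21l, Syce2 and Terb1), close to the 43.7% of all genes that did. Groups did not overlap for 6 members, 5 higher and 1 lower in A3, against 73.1% of all genes, and the median of the 9 was 0.56 against 0.05. The A1 libraries enter A1 against Aal and A3 against A1, and the Aal libraries enter both comparisons with Aal, so the comparisons are not independent of each other.

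**Figure D2:**
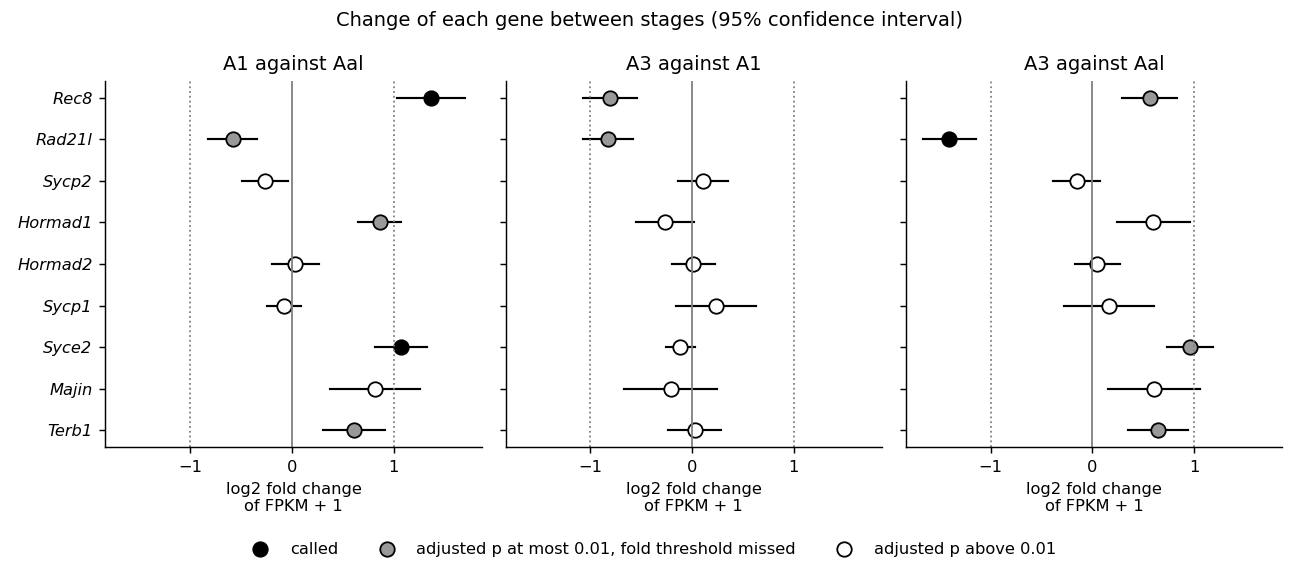
log2 fold change of FPKM + 1 (horizontal axes) for the 9 genes in A1 against Aal, A3 against A1 and A3 against Aal. Points are limma estimates and lines their 95% confidence intervals, dotted lines mark a log2 fold change of 1 in each direction, black points are called, grey points pass the adjusted p alone and white points pass neither. Rec8 and Syce2 are black in A1 against Aal, Rad21l is black in A3 against Aal, and Hormad2 lies within 0.05 of 0 in all 3.

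REC8 and RAD21L are the meiosis-specific kleisins, the subunits that close the cohesin ring. Rec8 (mm9 chr14:56236874-56244232) read 11.5 and 9.23 FPKM in the Aal libraries, 23.8, 32.1 and 29.0 in A1 and 14.9, 17.1 and 15.1 in A3. No pair of groups overlapped, and A3 lay between the other groups. The 95% interval of its log2 fold change in A1 against Aal, 1.37, ran from 1.03 to 1.70. Rad21l (mm9 chr2:151471140-151494269) read 15.9 and 15.1 FPKM in Aal, 9.09, 10.2 and 11.02 in A1 and 5.76, 4.94 and 5.04 in A3, so each stage lay below the one before with no overlap. It fell by 1.40 on the log2 scale from Aal to A3 (SE 0.11, limma adjusted p = 3.55e-05), which is an FPKM ratio of 0.338. The steps on the way were −0.58 in A1 against Aal (SE 0.10, limma adjusted p = 0.00367) and −0.83 in A3 against A1 (SE 0.11, limma adjusted p = 0.00269), both under the fold limit.

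Set against each other within a library, Rec8 and Rad21l gave an FPKM ratio of 0.722 and 0.610 in the Aal libraries. The ratio was 2.62, 3.16 and 2.64 in A1 and 2.59, 3.46 and 3.00 in A3. A1 and A3 overlapped in this ratio and Aal lay below every other library. An exact permutation test over all 560 assignments of libraries to stages (F between stages, smallest possible p = 0.00357) gave p = 0.0321, adjusted to 0.0786 over the 4 pairs of members tested, so the difference between stages did not pass at 0.05. Assignments that keep the Aal libraries together and only reshuffle A1 and A3 also give a high F. When Aal alone stands apart, the test can therefore hardly reach a lower p, and it does not show that the ratio is equal between stages. The genes closest to each kleisin in their profile over the 8 libraries, by Euclidean distance of centred log2 values among 4780 genes, were Tubb6, a beta-tubulin (distance 0.214), Nol4l (0.421) and Btbd11 (0.451) for Rec8. For Rad21l they were Evc, a ciliary gene (0.217), Rb1, the retinoblastoma cell cycle regulator (0.222), and Pard3, a polarity gene (0.239). The median distance to all genes was 1.66 for Rec8 and 1.71 for Rad21l. Tubb6 averaged 2.57, 8.41 and 4.54 FPKM and Rb1 57.2, 38.3 and 23.4 FPKM in Aal, A1 and A3.

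**Figure D3:**
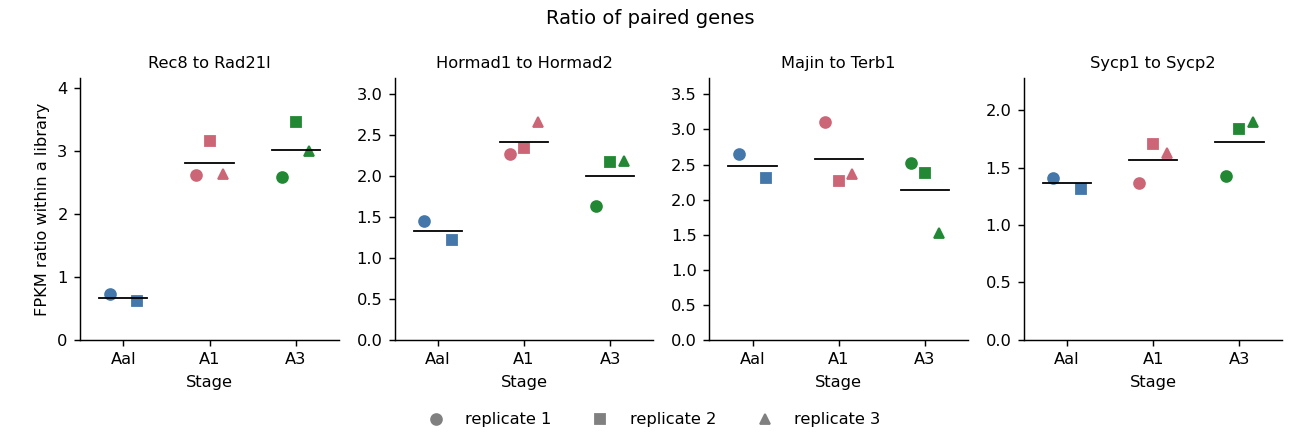
Ratio of FPKM of paired genes within each library (vertical axes, each starting at 0) at stages Aal, A1 and A3, for Rec8 to Rad21l, Hormad1 to Hormad2, Majin to Terb1 and Sycp1 to Sycp2. Points are libraries, shapes are replicate numbers and bars are group means. The ratio of Rec8 to Rad21l is below 1 in both Aal libraries and above 2.5 in the other 6.

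SYCP2 builds the core of the chromosome axis with SYCP3. Sycp2 (mm9 chr2:178079998-178142390) read 47.5 and 44.8 FPKM in Aal, 43.4, 35.0 and 37.1 in A1 and 36.2, 45.7 and 42.8 in A3. It was lower in A1 than in Aal without overlap, by −0.26 on the log2 scale (95% interval −0.49 to −0.03, limma adjusted p = 0.0660). Without A1 replicate 1 this was −0.35 with a limma adjusted p of 0.00978, under the fold limit. In Sycp2, A3 overlapped both other groups. Its intervals in A3 against A1 (−0.14 to 0.36) and in A3 against Aal (−0.39 to 0.08) exclude a log2 change of 1 in either direction. With 3861 to 6527 reads per library, its counting error was 1.24 to 1.61%.

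HORMAD1 and HORMAD2 are HORMA-domain proteins that coat axes that have not yet synapsed. Hormad1 (mm9 chr3:95363599-95391593) read 19.0 and 15.5 FPKM in Aal, 32.1, 32.3 and 31.8 in A1 and 21.4, 31.3 and 27.8 in A3. All 6 differentiating libraries lay above Aal, the A1 libraries were nearly equal, and A3 replicate 1 was the lowest of A3. The log2 change in A1 against Aal was 0.86 (SE 0.09, limma adjusted p = 0.000437, FPKM ratio 1.86), under the fold limit. In A3 against Aal it was 0.60 (SE 0.16, limma adjusted p = 0.0107), where the limma adjusted p was 9.36e-05 without A3 replicate 1 and 0.104 without Aal replicate 2. Hormad2 (mm9 chr11:4245817-4341108) read 13.1 and 12.8 FPKM in Aal, 14.2, 13.8 and 12.0 in A1 and 13.1, 14.5 and 12.8 in A3. All 3 groups overlapped, and the 95% intervals of its log2 change were −0.19 to 0.27, −0.20 to 0.22 and −0.17 to 0.27 in A1 against Aal, A3 against A1 and A3 against Aal.

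The ratio of Hormad1 to Hormad2 within a library was 1.33 ± 0.160 in Aal (SD, n = 2), 2.42 ± 0.209 in A1 and 1.99 ± 0.307 in A3 (n = 3 each). Aal libraries lay below all others and A1 lay above A3. The exact permutation test gave p = 0.0393, adjusted to 0.0786, which did not pass at 0.05.

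SYCP1 forms the transverse filaments that bridge paired axes. Sycp1 (mm9 chr3:102622422-102740023) read 67.1 and 59.1 FPKM in Aal, 59.2, 59.7 and 60.4 in A1 and 51.5, 84.1 and 81.3 in A3. A3 replicates 2 and 3 were the highest of all 8 and A3 replicate 1 the lowest, so that A3 overlapped both other groups, and A1 overlapped Aal. The log2 change was −0.07 in A1 against Aal (95% interval −0.24 to 0.09), 0.24 in A3 against A1 (−0.15 to 0.63) and 0.16 in A3 against Aal (−0.28 to 0.60). Without A3 replicate 1 the last 2 were 0.46 (limma adjusted p = 0.00214) and 0.39 (limma adjusted p = 0.00143), still under the fold limit. A3 replicate 1, the lowest A3 library for Sycp1, Sycp2 and Hormad1 alike, also had the highest Sertoli sum of A3, at 479 FPKM. It was the lowest for Rec8 too, between the others for Hormad2, and the highest of A3 for Rad21l, Syce2, Majin and Terb1. A1 replicate 3, with a Sertoli sum of 499 FPKM, was the highest A1 library for Rad21l and, by little, for Sycp1. It was between the others for Rec8 and Sycp2, and the lowest of A1 for Hormad1, Hormad2, Syce2, Majin and Terb1. The part of Sertoli transcripts in these orders was not tested. The ratio of Sycp1 to Sycp2 was 1.37, 1.57 and 1.72 on average in Aal, A1 and A3, with an exact permutation p of 0.261 (adjusted 0.348).

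SYCE2 is a central element protein of the synaptonemal complex, where it helps extend synapsis along the chromosomes. Syce2 (mm9 chr8:87396010-87412120) read 51.1 and 40.2 FPKM in Aal, 99.3, 101.4 and 89.2 in A1 and 90.2, 89.3 and 87.5 in A3. A1 and A3 overlapped, and both lay above Aal in every library. It rose by 1.07 on the log2 scale in A1 against Aal (SE 0.11, limma adjusted p = 0.000392, FPKM ratio 2.12). The change in A3 against Aal was 0.96 (SE 0.10, limma adjusted p = 0.000103, FPKM ratio 1.95), just under the fold limit, and in A3 against A1 it was −0.12 (95% interval −0.26 to 0.02). Syce2 sits at the fold limit: without Aal replicate 2 it was 0.91 in A1 against Aal and no longer called, and without Aal replicate 1 it was 1.13 in A3 against Aal and called. Syce2 overlaps Gcdh on the other strand in the mm9 annotation, and since the strand setting of the counting is not given in the sources used here, its level is uncertain to that extent. The nearest profiles were those of Eif1ax, a translation initiation factor (distance 0.234), Higd1a, a mitochondrial protein gene (0.240), and Hmgn1, a nucleosome-binding protein gene (0.245), against a median of 1.35.

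MAJIN anchors telomeres to the inner nuclear membrane, and TERB1 links that anchor to the telomere and to cohesin. Majin (mm9 chr19:6184388-6224225, annotated there as 1700123I01Rik) read 3.72 and 2.84 FPKM in Aal, 8.33, 6.04 and 5.43 in A1 and 6.90, 5.71 and 4.12 in A3. A1 and A3 overlapped and lay above Aal in all 6 libraries, with an FPKM ratio of 2.01 for A1 to Aal (log2 change 0.82, SE 0.19, limma adjusted p = 0.0117) and of 1.70 for A3 to Aal (0.61, SE 0.20, limma adjusted p = 0.0291). Neither adjusted p reached 0.01, and by limma that of A1 against Aal was 0.00210 without A1 replicate 3 and 0.112 without Aal replicate 2, where that of A3 against Aal was 0.196.

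Terb1 (mm9 chr8:106970619-107033810, annotated there as Ccdc79) read 1.40 and 1.23 FPKM in Aal, 2.68, 2.67 and 2.30 in A1 and 2.74, 2.40 and 2.71 in A3. Here too A1 and A3 overlapped above Aal. The FPKM ratio was 1.94 in A1 against Aal (log2 change 0.62, SE 0.13, limma adjusted p = 0.00798) and 1.99 in A3 against Aal (0.64, SE 0.13, limma adjusted p = 0.00302), both under the fold limit, and the pseudocount of 1 weighs most on this gene, the lowest of the 9. These values rest on 91 to 215 reads per library for Terb1 and 115 to 287 for Majin, a counting error of 6.82 to 10.5% and 5.90 to 9.33%. Terb1 also overlaps a U6 small nuclear RNA gene on the other strand. The ratio of Majin to Terb1 was 2.48, 2.58 and 2.14 on average in Aal, A1 and A3, with an exact permutation p of 0.661.

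The nearest pairs of members by profile were Sycp2 with Hormad2 (distance 0.444), Sycp2 with Sycp1 (0.532), Syce2 with Terb1 (0.543) and Hormad1 with Syce2 (0.575). By their tests and overlaps the 9 genes were sorted into 4 patterns. Syce2, Majin and Terb1 lay above Aal in every A1 and A3 library, though Majin did not reach an adjusted p of 0.01. Rec8 and Hormad1 did so too, with A3 below A1 without overlap. That drop passed the adjusted p for Rec8 but not for Hormad1 (limma adjusted p = 0.181). Rad21l stepped down, and Sycp2, Hormad2 and Sycp1 had no change that passed with all libraries. Lack of overlap with Aal was common, at 64.0% of all genes tested for A1 and 73.1% for A3. Without A1 replicate 3, the A1 library with the high Sertoli sum, the log2 changes in A1 against Aal were 1.34 for Rec8, 1.13 for Syce2, 0.87 for Hormad1, −0.64 for Rad21l and 0.67 for Terb1, with Rec8 and Syce2 called. In A3 against A1 they were −0.78 for Rec8 (limma adjusted p = 0.00697) and −0.77 for Rad21l (limma adjusted p = 0.00593) without that library. Without it, the Sertoli sums of A1 (72.7 and 74.8 FPKM) and of Aal (46.4 and 64.5) lie below every A3 sum (259 to 479). In A3 against A1 so reduced, and in A3 against Aal, stage and Sertoli sum cannot be told apart.

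Other genes of these pathways came from lists set by function, and no list was tested as a set. For each list below, the shares over all genes tested serve as the background. They were 9.15% called in A1 against Aal, 1.50% in A3 against A1 and 17.6% in A3 against Aal. The median log2 changes of all genes were 0.03, 0.01 and 0.05. Of 32 cohesin subunits and regulators named, 9 were in the table, and 7 of these are not members. Of the 7, 1 was called higher and none lower in either comparison with Aal, with a median log2 change of 0.20 for A1 and 0.17 for A3. That gene was Dscc1, whose product loads the replication clamp and aids cohesion, at 4.65 and 3.01 FPKM in Aal, 11.5, 10.8 and 9.36 in A1 and 16.4, 10.1 and 11.6 in A3. All 6 differentiating libraries were above Aal, by 1.28 in A1 (SE 0.17, limma adjusted p = 0.00104) and 1.50 in A3 (SE 0.22, limma adjusted p = 0.000542). Cdca5, encoding sororin, which holds cohesin on replicated DNA, was 0.65 higher in A1 (limma adjusted p = 0.000654) and 0.75 higher in A3 (limma adjusted p = 0.000221), under the fold limit. No gene of the list was called in A3 against A1.

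Of 22 axis and synaptonemal complex genes named, 9 were in the table, and 3 that are not members were tested. Hells, a chromatin remodeler, stood at 133 and 110 FPKM in Aal, 259, 274 and 280 in A1 and 312, 290 and 263 in A3. It rose by 1.15 in A1 (SE 0.09, limma adjusted p = 0.000245) and by 1.24 in A3 against Aal (SE 0.10, limma adjusted p = 4.19e-05). Trip13, the ATPase that removes HORMAD proteins from axes, was 0.66 and 0.69 higher (limma adjusted p = 0.000287 and 7.24e-05), under the fold limit, and the value of Fkbp6 was 0.09 in A1 against Aal. The median of these 3 was 0.66 in A1 against Aal, 0.03 in A3 against A1 and 0.69 in A3 against Aal.

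Of 28 genes of telomere attachment, the LINC complex that spans the nuclear envelope, and shelterin that caps telomeres, 9 were in the table. None of the 7 that are not members was called in any comparison, and their medians were −0.10, −0.03 and −0.13. Acd, a shelterin subunit, was 0.40 higher in A3 than in Aal (SE 0.08, limma adjusted p = 0.00222). Sun1, the LINC protein of the inner membrane, read 38.9 and 39.3 FPKM in Aal and 34.4 to 38.0 in the other 6 libraries. Rtel1, a telomere helicase, read 31.1 and 31.7 in Aal and 24.4 to 27.9 in the other 6.

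Of 42 named regulators of meiotic genes, 16 were in the table and 13 were tested. In A1 against Aal 3 were called higher. Dnmt3b, a de novo DNA methyltransferase, rose by 1.25 (SE 0.09, limma adjusted p = 0.000221). Uhrf1, which guides maintenance methylation, rose by 1.19 (SE 0.07, limma adjusted p = 0.000127). Sohlh2, a factor of spermatogonial differentiation, rose by 1.14 (SE 0.10, limma adjusted p = 0.000287). Nanos2, an RNA-binding repressor of meiosis, fell by 1.70 (SE 0.19, limma adjusted p = 0.000580), from 7.05 and 9.49 FPKM in Aal to 1.45 to 2.44 in A1. In A3 against A1 only Dmrtb1, which acts at the switch from mitosis to meiosis, was called, rising by 2.52 (SE 0.14, limma adjusted p = 0.000196) from 11.7 to 17.4 FPKM in A1 to 77.7 to 97.8 in A3. In A3 against Aal Dnmt3b, Uhrf1, Sohlh2 and Dmrtb1 rose and Nanos2 fell, and Dnmt1, the maintenance methyltransferase, rose as well (1.13, SE 0.08, limma adjusted p = 2.98e-05).

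**Figure D4:**
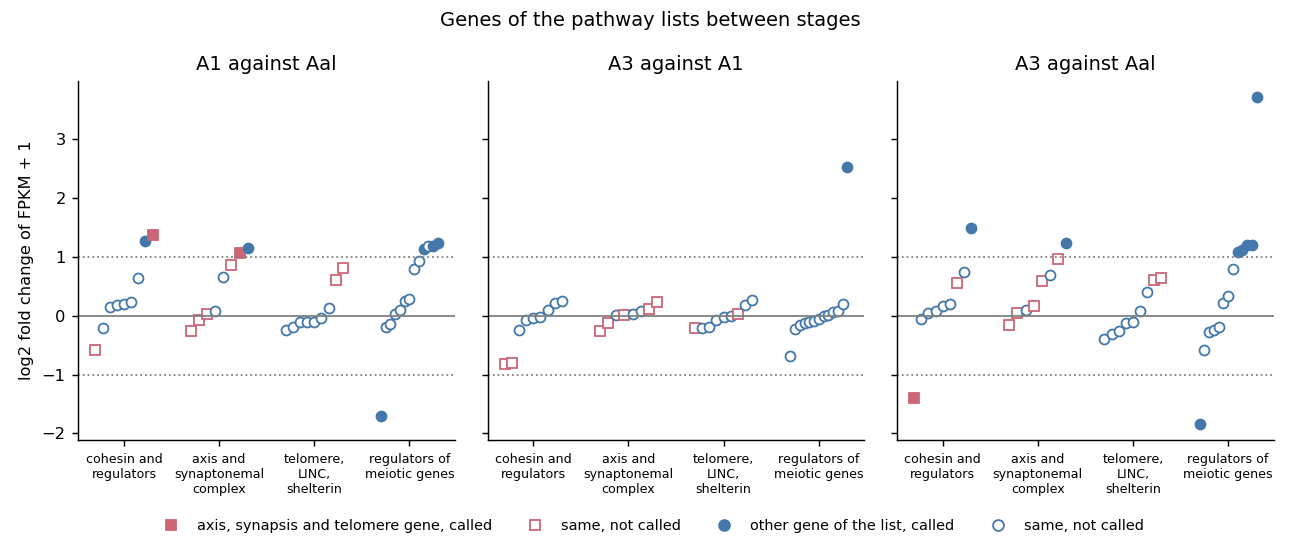
log2 fold change of FPKM + 1 (vertical axis) for each tested gene of 4 lists in A1 against Aal, A3 against A1 and A3 against Aal. Squares are the 9 axis, synapsis and telomere genes, circles are other genes of the list, filled symbols are called and dotted lines mark a log2 change of 1 in each direction. Telomere, LINC and shelterin genes other than Majin and Terb1 lie between −0.39 and 0.40, and the filled circle near the top of the middle and right panels is Dmrtb1.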

How the data were processed

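The authors trimmed reads (cutadapt 1.9), mapped them to mm9 (STAR 2.5.2b), counted them per gene (featureCounts) and deposited FPKM. Libraries were made with a stranded mRNA kit. The counting's strand setting, the annotation and the step to FPKM are not given in the sources used here. From the FPKM steps, whole reads (tolerance 0.02) were rebuilt for 99.8% of values, giving 18276164 to 27316451 reads per library, of which the table holds 34.0 to 34.4%. On simulated data for 5736 genes the rebuilding was right for 99.4%.

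Stages were compared in pairs with limma 3.58.1 (R 4.3.3, lmFit and eBayes with a mean-variance trend, two-sided) on log2(FPKM + 1), for genes with FPKM of at least 1 in 2 libraries of the pair. The study used a count model, which FPKM does not allow as the main test. In data simulated for A1 against Aal (4518 genes), 100% of 200 genes changed 4-fold were called and 1 unchanged gene was. The changed genes lay above a minimum level that Majin and Terb1 did not reach, and all genes had the same simulated spread. No member changed as much as 4-fold, so the simulation does not give the power for the members. Replicate pairs differed by a chi-square of 5.69 to 21.7 per gene, beyond sampling noise. The p-values measure the spread between preparations. Ratios were tested by exact permutation over libraries.

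The members and lists were chosen with earlier results of these data known. Named were the members, every called gene of a pathway list and otherwise its 3 most abundant genes, and for each called member the 3 nearest profiles, besides Uchl1 and marker lists as sums. Cdca5, Trip13, Fkbp6, Clu, Ldhc, Ccna1, Tbpl1, Clgn, Tesk2, Lyz2, Csf1r, C1qb and Aif1 lie outside this rule and were named after their values were seen. One gene, Gm960, entered the telomere list by mistake as an older name of Majin and was dropped. Positions are from GENCODE M1 (mm9) and promoters from RefSeq (GRCm38.p6). Rad21 was not analysed here, so its planned ratio with Rec8 was not made. Alternatives covered the pseudocount, the filter, scaling, variance model, call threshold, replicate block, limma voom on rebuilt reads and each library left out.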

Additional observations from a re-analysis of the deposited data

How the results depend on the processing

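Of 384 values of a member's log2 fold change under an alternative, 375 kept their direction and their side of the threshold, 2 lost the call, 1 gained it and 6 changed sign, the last all for changes that were not called. Most changes of members were not called in the main fit, so staying on that side of the threshold was easily met. Within the 375 the adjusted p could still move far, as for Sycp1 and Hormad1 without A3 replicate 1. The calls that moved were of Syce2, which lies at the fold limit. In A1 against Aal, 1 member (Rec8) was called with quantile normalization, where Syce2 was at 0.95 (limma adjusted p = 0.000456), and 1 without Aal replicate 2, where Syce2 was at 0.91 (limma adjusted p = 0.00688). Leaving out 1 library gave 1 to 2 members in A1 against Aal, 0 in A3 against A1 and 1 to 2 in A3 against Aal, the 2 being Rad21l and Syce2 without Aal replicate 1. With no fold threshold, 5, 2 and 4 members passed in A1 against Aal, A3 against A1 and A3 against Aal. Of members past the adjusted p alone, 1 library left out raised it above 0.01 for Rad21l in A1 against Aal (to 0.0389 without Aal replicate 1), Terb1 in A1 against Aal and A3 against Aal (0.0783 and 0.0422 without Aal replicate 2), Rec8 in A3 against Aal (0.0412 without Aal replicate 2) and, in A3 against A1, Rec8 (0.0213 without A3 replicate 3) and Rad21l (0.0182 without A3 replicate 2), by limma in each case. The sign changed for Hormad2 in A1 against Aal (−0.0057 with median-ratio scaling and −0.0063 without A1 replicate 1) and in A3 against A1 (−0.058 without A1 replicate 3 and −0.037 without A3 replicate 2), for Sycp1 in A1 against Aal (0.015 without Aal replicate 1) and for Terb1 in A3 against A1 (−0.025 without A1 replicate 3). Over all libraries left out in turn these changes ran from −0.0063 to 0.11 and from −0.058 to 0.056 (Hormad2), from −0.16 to 0.015 (Sycp1) and from −0.025 to 0.071 (Terb1). The cause of these shifts was not tested.

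Same-numbered libraries did not deviate together from their group means (r from −0.323 to 0.045). With 2 or 3 libraries per group, these values cannot tell whether such libraries shared a litter or a day. With the replicate block 2, 0 and 1 members were called, as without it, and 444, 39 and 800 genes in all, against 424, 69 and 823. Over all genes, limma voom on rebuilt reads called 731, 199 and 1215, a pseudocount of 0.1 called 670, 152 and 1170, and an FPKM of at least 5 called 538 in A3 against Aal, where Terb1 could not be tested. Leaving out 1 library gave 179 to 475, 26 to 111 and 597 to 878. With 1 library left out the adjusted p was 0.0952 to 0.257 for the ratio of Rec8 to Rad21l and 0.0571 to 0.171 for Hormad1 to Hormad2. With an Aal library left out too few assignments remain for a single ratio to pass at 0.05, so those values say nothing on stability. Depth limits Terb1 and Majin most, and 2 Aal libraries limit every comparison with Aal.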
